A study of Mus musculus with 8 samples.

Results

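Mitochondrial ribosomal proteins are described here across 8 Affymetrix arrays of sorted mouse CD4+ T cells. The genes were taken by symbol, without use of their values: every probe set that the platform annotation gives a single gene symbol beginning Mrpl or Mrps followed by a digit. This found 156 probe sets of 76 genes, out of 18193 genes with a singly named probe set, and each gene was read by its probe set with the highest mean over the 8 arrays. By symbol, 47 genes encode large-subunit proteins (Mrpl) and 29 encode small-subunit proteins (Mrps); the split is by symbol, and Mrps18a and Mrps30, counted with the 29, are known to sit in the large subunit. The mice carried an EGFP-tagged allele of Foxp3, the X-linked gene of the transcription factor that defines regulatory T cells. The allele was either wild type (WT) or a mutant that the labels call delta, and the series title speaks of a Foxp3 protein without function. Cells had been sorted by EGFP fluorescence, and the design text names hemizygous males as the source of the EGFP-positive cells. The groups were WT EGFP+ (n = 3), mutant EGFP+ (n = 3), WT EGFP- (n = 1) and mutant EGFP- (n = 1). The tag and the CD4+ sort were therefore shared by all groups, while the age of the mice and the base change of the mutant allele are not stated in the labels.

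The mitochondrial ribosome is built in the matrix from RNAs encoded by mitochondrial DNA and from proteins encoded in the nucleus, made by cytosolic ribosomes and imported. It translates the few proteins encoded by mitochondrial DNA, all of them core subunits of the respiratory chain and of ATP synthase. The small subunit holds the messenger RNA and the decoding centre, and the large subunit holds the peptidyl transferase centre and the exit tunnel. T cells that leave quiescence expand their mitochondria and raise mitochondrial translation as they grow and divide.

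The expression values were RMA intensities, in which background is corrected, arrays are put on a common distribution and the probes of a set are summarised, and they are given as log2 intensity throughout. The median intensity per array lay between 53.3 and 54.7. Foxp3 itself read 4.75, 4.86 and 4.64 in the arrays labelled WT EGFP+, 11.10, 11.51 and 11.21 in those labelled mutant EGFP+, 4.52 in the WT EGFP- array and 6.14 in the mutant EGFP- array. The probe set was thus no higher than the 31.3 percentile of its array where the label says WT EGFP+, against that label, and where its probes lie relative to the tag and the mutation is not stated. Other genes typical of regulatory T cells were higher in the WT EGFP+ arrays than in the single WT EGFP- array: Il2ra read 10, 10.02 and 9.82 in WT EGFP+ and 5.38 in WT EGFP-, and Ctla4 read 12.33, 10.12 and 12.25 against 6.09. Both were high in mutant EGFP+ too, with Il2ra at 9.06, 9.45 and 9.07 and Ctla4 at 11.20, 11.53 and 10.12. The mutant EGFP- array read 7.47 and 9.26 for them. These 2 genes therefore do not show which EGFP+ group carries which allele. Groups are named as labelled throughout. Cd4 stood between 11.07 and 11.42 in all 8 arrays. Cd8a, which marks another T cell lineage, stood at 8.50 and 8.84 in the mutant EGFP+ arrays 1 and 2 and at 8.52 in the mutant EGFP- array, against 5.22 to 6.36 in the other arrays. Cd8b1, the other CD8 marker read, did not follow it. It stood at 6.86, 6.66 and 7.13 in WT EGFP+ and at 6.82, 7.41 and 6.56 in mutant EGFP+. The WT and mutant EGFP- arrays read 7.67 and 7.59 for Cd8b1. Whether the arrays of a group stand for different animals is not stated, so p-values rest on the scatter among these arrays, part of which may be technical. Arrays carry only title numbers; these fall in 3 runs, each with 1 WT and 1 mutant EGFP+ array, and what the runs stand for was not given.

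Transcripts of mitochondrial ribosomal proteins were higher in the arrays labelled mutant EGFP+ than in those labelled WT EGFP+, in both subunits. Of the 76 genes, 41 (53.9%) rose and 0 fell at an adjusted p under 0.05 (limma, two-sided, Benjamini-Hochberg over 45037 probe sets), where 10.4% of all genes were called higher and 6.02% lower. Since all 76 genes lay above the median level of the probe sets, the nearer background is that of the 10962 genes above that level, of which 16.2% were called higher. Every one of the 76 fitted differences was above 0, with a median log2 difference of 0.53, quartiles of 0.34 and 0.68 and a range of 0.04 to 1.07, and the median over all genes was 0.02. The change was modest in each gene: only Mrpl51 exceeded a 2-fold difference, with Mrpl27 and Mrps25 just short of it. All 3 mutant arrays exceeded all 3 WT arrays in 68 members (89.5%), against 20.2% of all genes and 27.7% of genes above the median level. The 41 called genes all stood apart in this way, as did 27 that were not called. At an unadjusted p under 0.05 (limma) there were 64, all of them higher. At the same cut stood 5266 of the 18193 genes, 3135 of them higher. Among the 10962 genes above the median level there were 4647, with 2751 higher. The call count moved with single arrays: it was 20 without WT EGFP+ array 1 or without mutant EGFP+ array 1, 25 without WT EGFP+ array 3, and 26 without mutant EGFP+ array 2 or array 3, while 49 were called without WT EGFP+ array 2. The share of all genes called higher moved with the same arrays. It was 6.63% without WT EGFP+ array 1 or mutant EGFP+ array 1 and 7.38% without WT EGFP+ array 3. Without mutant EGFP+ array 2 or array 3 it was 7.41% or 8.06%, and without WT EGFP+ array 2 it was 11.9%.

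Array by array, the mean over members of the log2 intensity minus each gene's own mean was -0.36, -0.19 and -0.27 in the WT EGFP+ arrays and 0.30, 0.18 and 0.26 in the mutant EGFP+ arrays. It was -0.11 in the WT EGFP- array and 0.20 in the mutant EGFP- array. The 3 WT EGFP+ arrays were the lowest of the 8, and the mutant EGFP- array lay within the range of the mutant EGFP+ arrays. The subunits moved alike: in the same order of arrays the large-subunit mean was -0.36, -0.20, -0.28, 0.29, 0.19, 0.27, -0.12 and 0.21, and the small-subunit mean was -0.37, -0.17, -0.26, 0.31, 0.17, 0.23, -0.10 and 0.20. Within each run of title numbers, with 1 array a side and therefore no test, the median difference of members between mutant and WT EGFP+ was 0.64, 0.31 and 0.52. Over all 18193 genes the medians were 0.06, 0.01 and 0.02. In these runs 76, 71 and 73 members were higher in the mutant array, against 10316, 9370 and 9487 of all genes. In every run 69 members were higher, and all genes were not counted in this way.

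**Figure D1:**
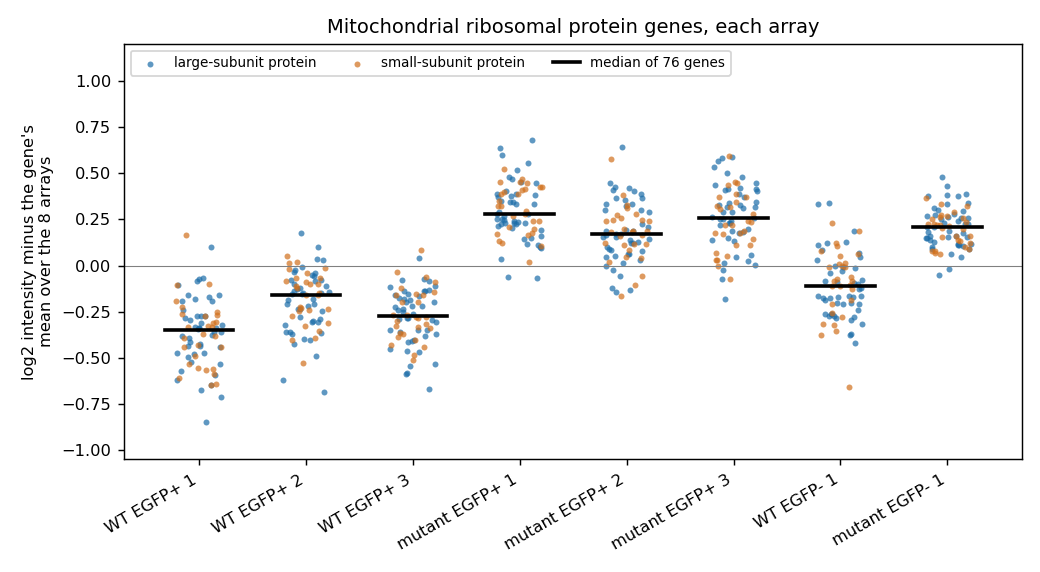
Each point is 1 of the 76 genes in 1 array, plotted as log2 intensity minus the gene's mean over the 8 arrays, with large-subunit genes in blue, small-subunit genes in orange and the median of the 76 as a black line. By their medians the WT EGFP+ arrays lie lowest, the 3 mutant EGFP+ arrays and the mutant EGFP- array lie above 0, and the WT EGFP- array lies between.

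In the large subunit 25 of 47 genes (53.2%) rose and 0 fell, with a median log2 difference of 0.47. Mrpl51, a protein of the mitochondrial ribosome that the bacterial one lacks, had the largest difference. It read 9.64, 10.21 and 9.90 in the WT EGFP+ arrays and 11.17, 10.81 and 10.97 in the mutant EGFP+ arrays, with 10.25 and 10.97 in the WT and mutant EGFP- arrays. The groups did not overlap, and the log2 difference was 1.07 (SE 0.17; limma adjusted p = 0.0062), a fold of 2.10. This call depended on the probe set: the other probe sets of Mrpl51, at the 50.9 and 17.4 percentiles of level, gave -0.11 and -0.09, and the mean of the gene's probe sets gave 0.29 (limma adjusted p = 0.18). Mrpl27, the homologue of a bacterial protein near the peptidyl transferase centre, read 9.79, 9.65 and 9.90 in WT EGFP+ and 10.75, 10.72 and 10.86 in mutant EGFP+, with 9.85 and 10.65 in the WT and mutant EGFP- arrays. All 4 mutant arrays, sorted either way, lay above all 4 WT arrays. The difference was 1.0 (SE 0.11; limma adjusted p = 0.0014), and the second probe set of Mrpl27 rose by 0.60 as well (SE 0.13; limma adjusted p = 0.022).

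Mrpl17, which has a bacterial homologue, read 8.77, 9.08 and 9.03 in WT EGFP+ and 10, 9.78 and 10.03 in mutant EGFP+, a difference of 0.98 (SE 0.13; limma adjusted p = 0.0029). The mean of its 3 probe sets gave 0.30 and lost the call (limma adjusted p = 0.067). Mrpl40, another protein without a bacterial counterpart, read 9.01, 9.49 and 9.18 in WT EGFP+ and 10.36, 10.09 and 10.04 in mutant EGFP+, a difference of 0.94 (SE 0.16; limma adjusted p = 0.0075). Mrpl57 read 9.84, 10.03 and 9.97 against 10.90, 10.84 and 10.84, a difference of 0.92 (SE 0.11, limma adjusted p = 0.0015). Its second probe set, at the 51.5 percentile of level, gave -0.01, and the mean of its probe sets gave 0.45 (limma adjusted p = 0.0068). For these 3 genes too the EGFP+ groups stood apart by more than the spread within either. Mrpl18, whose bacterial homologue binds a small ribosomal RNA, showed the tightest mutant group, at 10.59, 10.57 and 10.58 against 9.67, 9.82 and 9.61 in WT EGFP+, a difference of 0.88 (SE 0.11; limma adjusted p = 0.0019). Its EGFP- arrays read 9.77 (WT) and 10.53 (mutant), each beside the EGFP+ arrays of the same allele.

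Of the stalk proteins, which recruit translation factors to the large subunit, Mrpl12 read 9.24, 9.09 and 9.70 in WT EGFP+ and 10.23, 10.13 and 10.22 in mutant EGFP+. The mutant arrays lay close together above a wider WT group, with a difference of 0.84 (SE 0.16; limma adjusted p = 0.014). The call was lost without WT EGFP+ array 1 (0.79, limma adjusted p = 0.061) and without mutant EGFP+ array 1 (0.83, limma adjusted p = 0.06). Mrpl10, which anchors the stalk, read 9.28, 9.61 and 9.59 against 9.99, 9.86 and 9.98, a difference of 0.44 that did not pass (SE 0.13; limma adjusted p = 0.06), though it passed without WT EGFP+ array 2 (0.50, limma adjusted p = 0.0488). Mrpl11, of the neighbouring factor-binding region, rose by 0.47 (SE 0.11; limma adjusted p = 0.032). Mrpl37 lay just outside the threshold at 0.44 (limma adjusted p = 0.0513), passing without WT EGFP+ array 2 (0.49, limma adjusted p = 0.0471), with Mrpl54 beside it (0.47, limma adjusted p = 0.0505). Mrpl19 was just inside, at 0.74 (limma adjusted p = 0.044), as was Mrps33 of the small subunit at 0.44 (limma adjusted p = 0.042).

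Not every large-subunit gene differed. Mrpl24 read 10.62, 10.99 and 10.64 in WT EGFP+ and 10.75, 10.79 and 10.84 in mutant EGFP+, so that the mutant arrays fell inside the WT range, with a difference of 0.04 (SE 0.13; limma adjusted p = 0.9). Mrpl32, which is cleaved by a mitochondrial protease before it joins the ribosome, read 10.81, 10.50 and 10.75 against 10.86, 10.65 and 10.71, a difference of 0.05 (SE 0.13; limma adjusted p = 0.86). Mrpl38 read 7.94, 8.24 and 8.10 against 8.46, 8.07 and 8.03, a difference of 0.09 (SE 0.15; limma adjusted p = 0.8). In these 3 genes the groups overlapped, and the sign of the difference turned when single arrays were left out: Mrpl24 read -0.03 without WT EGFP+ array 1 and -0.01 without array 3, Mrpl32 read -0.04 without WT EGFP+ array 2, and Mrpl38 read -0.05 without mutant EGFP+ array 1. The remaining members whose EGFP+ arrays overlapped were Mrpl9, Mrpl39, Mrpl49, Mrps30 and Mrps31.

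**Figure D2:**
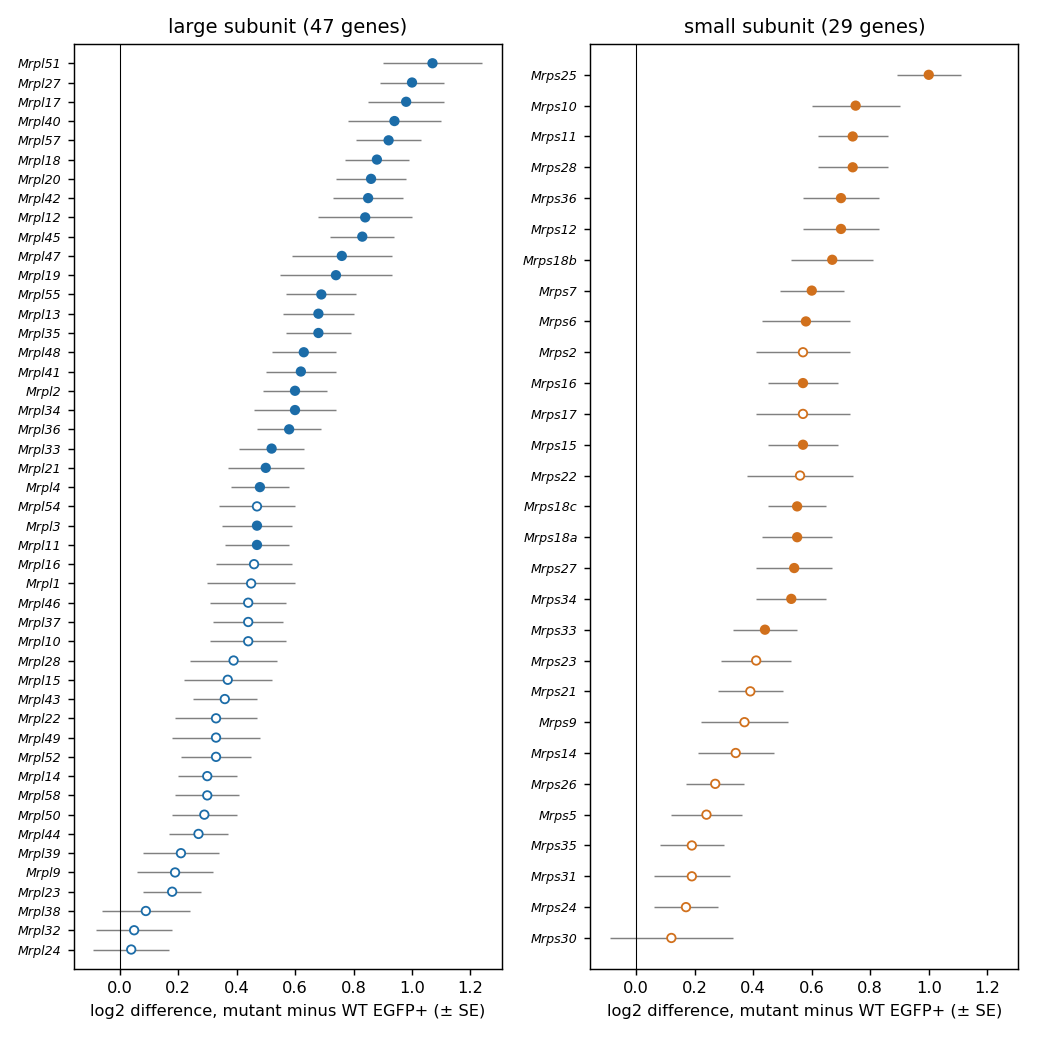
Log2 difference between mutant EGFP+ and WT EGFP+ (horizontal axis) with its standard error for the 47 large-subunit and 29 small-subunit genes, in order of size; filled points passed a limma adjusted p of 0.05 and open points did not. All 76 points lie to the right of 0, and the lowest, Mrpl24, stands at 0.04.

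The start regions of some large-subunit genes that rose are shown as examples of promoters with and without motifs of factors known from mitochondrial genes. They were picked for their motifs after the values were seen, and no link between motif and difference was tested. They are 300-base stretches from 250 bases before to 50 bases after a RefSeq transcript start (build GRCm38.p6), read on the gene's strand, 5′ to 3′. Capitals mark the ETS core CCGGAAG, which GABPA, a factor of many mitochondrial gene promoters, can bind, and the NRF1 core TGCGCA. The region of Mrpl51 is chr6:125191950-125192249 (plus strand), that of Mrpl27 is chr11:94653541-94653840 (plus strand), that of Mrpl57 is chr14:57825989-57826288 (plus strand) and that of Mrpl40, which holds none of the motifs searched, is chr16:18876588-18876887 (minus strand).
Mrpl51: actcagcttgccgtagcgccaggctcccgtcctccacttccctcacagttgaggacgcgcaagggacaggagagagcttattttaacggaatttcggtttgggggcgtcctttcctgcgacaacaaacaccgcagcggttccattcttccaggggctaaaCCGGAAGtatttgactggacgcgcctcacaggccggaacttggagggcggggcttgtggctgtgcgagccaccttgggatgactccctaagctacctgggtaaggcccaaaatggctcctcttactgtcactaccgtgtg
Mrpl27: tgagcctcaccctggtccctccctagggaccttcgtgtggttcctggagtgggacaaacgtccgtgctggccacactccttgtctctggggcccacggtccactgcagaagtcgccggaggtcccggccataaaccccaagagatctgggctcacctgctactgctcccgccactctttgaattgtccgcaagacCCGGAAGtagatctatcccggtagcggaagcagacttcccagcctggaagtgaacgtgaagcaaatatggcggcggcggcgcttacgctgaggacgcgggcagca
Mrpl57: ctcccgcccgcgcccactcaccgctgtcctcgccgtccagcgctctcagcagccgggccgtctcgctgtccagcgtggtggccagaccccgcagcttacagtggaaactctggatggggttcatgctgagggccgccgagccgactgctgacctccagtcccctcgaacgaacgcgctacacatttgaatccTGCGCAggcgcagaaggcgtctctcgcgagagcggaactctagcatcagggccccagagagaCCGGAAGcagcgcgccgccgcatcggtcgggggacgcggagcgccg
Mrpl40: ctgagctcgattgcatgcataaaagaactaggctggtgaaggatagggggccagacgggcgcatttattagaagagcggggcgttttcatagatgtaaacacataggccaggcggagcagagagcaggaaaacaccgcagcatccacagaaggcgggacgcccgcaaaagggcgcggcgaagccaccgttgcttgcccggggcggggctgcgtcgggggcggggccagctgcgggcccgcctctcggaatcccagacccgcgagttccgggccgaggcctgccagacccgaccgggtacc
In Mrpl51 the ETS core begins 90 bases before the start, in Mrpl27 55 bases before it and in Mrpl57 4 bases after it, with the NRF1 core of Mrpl57 beginning 58 bases before the start.

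Among the genes with small-subunit symbols 16 of 29 (55.2%) rose and 0 fell, with a median log2 difference of 0.55 and a range of 0.12 to 1.0. Mrps25, a small-subunit protein without a bacterial counterpart, had the smallest p of all members. It read 7.99, 8.16 and 8.07 in WT EGFP+ and 9.08, 9.13 and 9.0 in mutant EGFP+, with 8.20 and 8.81 in the WT and mutant EGFP- arrays. The groups lay far apart relative to their spread, and the difference was 1.0 (SE 0.11, limma adjusted p = 0.001). The other probe sets of Mrps25, at the 57 and 36.3 percentiles of level, gave 0.53 and 0.08 and did not pass. With the mean of its probe sets the difference was 0.54 (limma adjusted p = 0.017). Mrps28 read 8.73, 8.94 and 8.88 against 9.69, 9.45 and 9.61, a difference of 0.74 (SE 0.12; limma adjusted p = 0.0064). Its WT EGFP- array, at 9.33, stood nearer to the mutant EGFP- array, at 9.49, than to the WT EGFP+ arrays. Mrps11, with a bacterial homologue in the platform of the subunit, read 8.51, 8.21 and 8.46 against 9.16, 9.05 and 9.19, a difference of 0.74 (SE 0.12; limma adjusted p = 0.0073); with the mean of its probe sets this was 0.27 (limma adjusted p = 0.081). Mrps10 read 8.42, 8.82 and 8.70 against 9.52, 9.18 and 9.50, a difference of 0.75 (SE 0.15; limma adjusted p = 0.016). That call was lost without WT EGFP+ array 1 (0.64, limma adjusted p = 0.056), without mutant EGFP+ array 1 (0.69, limma adjusted p = 0.067) or array 3 (0.71, limma adjusted p = 0.0519), with the runs of title numbers as a block (0.75, limma adjusted p = 0.0509) and with the mean of its probe sets (0.19, limma adjusted p = 0.36).

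Mrps12, the homologue of the bacterial protein at the decoding centre, read 8.68, 9.04 and 9.0 in WT EGFP+ and 9.68, 9.54 and 9.59 in mutant EGFP+, with 9.06 and 9.54 in the WT and mutant EGFP- arrays. The difference was 0.70 (SE 0.13; limma adjusted p = 0.012), and it missed the threshold without mutant EGFP+ array 1 (0.66, limma adjusted p = 0.0541). The Mrps18 proteins are a family of paralogues descended from a single bacterial protein, of which Mrps18a is the one placed in the large subunit. Mrps18c read 10.18, 10.25 and 10.17 against 10.81, 10.73 and 10.72, a difference of 0.55 (SE 0.10; limma adjusted p = 0.011). Mrps18b read 8.40, 8.77 and 8.64 against 9.29, 9.13 and 9.40, a difference of 0.67 (SE 0.14; limma adjusted p = 0.017). Mrps18a read 8.68, 9.0 and 8.84 against 9.42, 9.45 and 9.30, a difference of 0.55 (SE 0.12; limma adjusted p = 0.023). All 3 paralogues thus rose, by 0.55 to 0.67, without overlap of the EGFP+ groups. Mrps18c passed under every alternative tried. Mrps18a lost the call without WT EGFP+ array 1 (0.47) or 3 (0.56) and without mutant EGFP+ array 1 (0.54) or 2 (0.52), with limma adjusted p = 0.083, 0.073, 0.083 and 0.085. Mrps18b lost it without WT EGFP+ array 1 (0.57) or 3 (0.69) and without mutant EGFP+ array 1 (0.66) or 3 (0.61), with limma adjusted p = 0.059, 0.0519, 0.063 and 0.0548.

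Mrps36 was counted here by its symbol alone and is known as a part of the 2-oxoglutarate dehydrogenase complex of the citric acid cycle. The gene read 8.56, 8.89 and 8.48 in WT EGFP+ and 9.39, 9.37 and 9.27 in mutant EGFP+, a difference of 0.70 (SE 0.13, limma adjusted p = 0.013). It was 0.66 without WT EGFP+ array 1 and 0.62 without WT EGFP+ array 3, with limma adjusted p = 0.057 and 0.0513, and 0.68 without mutant EGFP+ array 1 or array 2, with limma adjusted p = 0.057 and 0.0527. The lowest differences of the 29 were those of Mrps30, Mrps24 and Mrps31. Mrps30 read 9.21, 8.64 and 9.13 against 9.49, 8.88 and 8.97, with a difference of 0.12 (SE 0.21; limma adjusted p = 0.82) and the largest standard error among the members named. It turned to -0.06 without WT EGFP+ array 2 and to -0.07 without mutant EGFP+ array 1. Mrps24 read 9.82, 10 and 9.95 against 10.03, 10.13 and 10.12 (0.17, SE 0.11; limma adjusted p = 0.4), and Mrps31 read 8.25, 8.54 and 8.37 against 8.63, 8.42 and 8.67 (0.19, SE 0.13; limma adjusted p = 0.45). The mutant arrays of Mrps24 stood just above the WT arrays, and those of Mrps31 overlapped them.

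**Figure D3:**
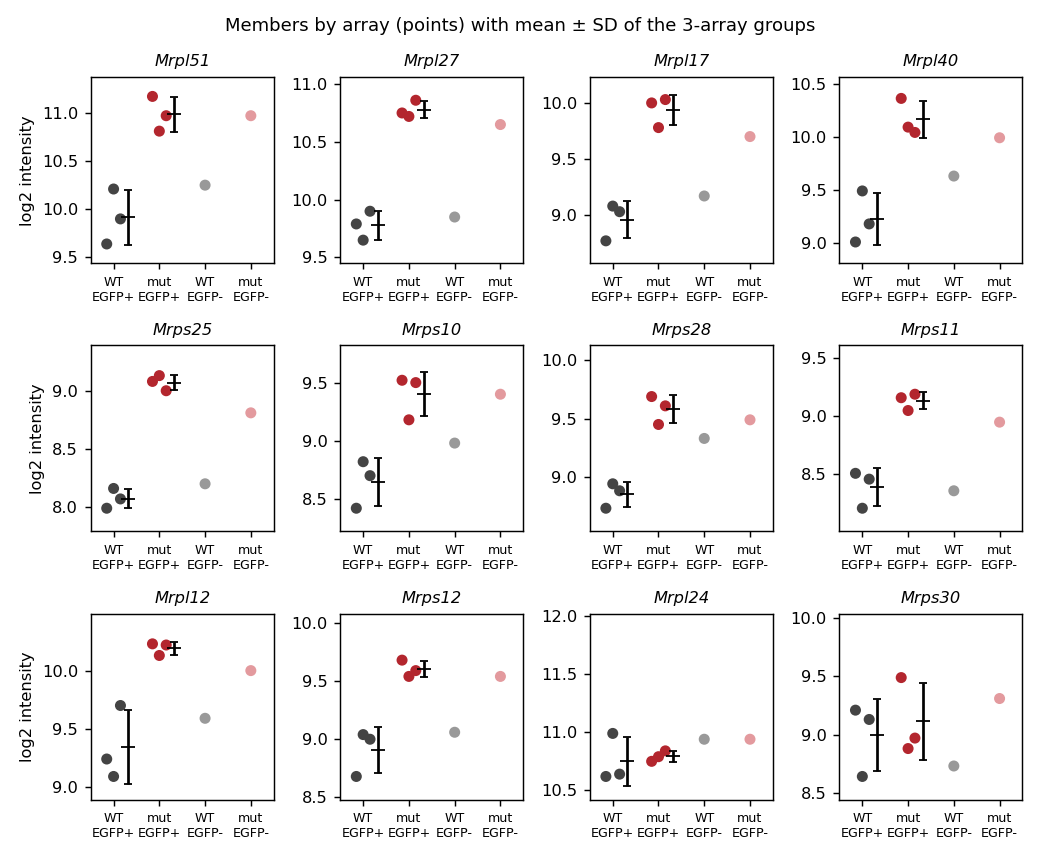
Log2 intensity of 12 members by array: points are single arrays of WT EGFP+ (black), mutant EGFP+ (red), WT EGFP- (grey) and mutant EGFP- (pink), and crosses with bars are the mean ± SD of each 3-array group; every panel has its own vertical range. In 10 panels the mutant EGFP+ arrays lie clear above the WT EGFP+ arrays, while in the panels of Mrpl24 and Mrps30 the groups overlap.

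The start regions of small-subunit genes are given on the same terms, with capitals also for the YY1 core AAGATGG, shown by its reverse complement CCATCTT where it lies on the other strand. The region of Mrps12 is chr7:28741772-28742071 (minus strand), that of Mrps18b is chr17:35916391-35916690 (minus strand), that of Mrps11 is chr7:78782881-78783180 (plus strand) and that of Mrps25, again without any of the motifs, is chr6:92183974-92184273 (minus strand). The first 3 were picked to show each motif and Mrps25 as the gene with the smallest p.
Mrps12: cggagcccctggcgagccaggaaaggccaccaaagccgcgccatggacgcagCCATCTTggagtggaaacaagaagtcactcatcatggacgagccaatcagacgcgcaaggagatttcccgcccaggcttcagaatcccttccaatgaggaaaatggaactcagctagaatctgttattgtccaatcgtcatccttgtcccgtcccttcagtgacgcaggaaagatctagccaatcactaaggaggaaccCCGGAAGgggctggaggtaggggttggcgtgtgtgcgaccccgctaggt
Mrps18b: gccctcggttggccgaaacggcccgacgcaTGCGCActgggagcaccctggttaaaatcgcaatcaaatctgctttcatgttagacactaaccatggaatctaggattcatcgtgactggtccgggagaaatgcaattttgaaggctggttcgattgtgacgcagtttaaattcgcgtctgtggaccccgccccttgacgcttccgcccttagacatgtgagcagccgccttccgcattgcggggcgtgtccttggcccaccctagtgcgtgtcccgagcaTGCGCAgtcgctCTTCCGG
Mrps11: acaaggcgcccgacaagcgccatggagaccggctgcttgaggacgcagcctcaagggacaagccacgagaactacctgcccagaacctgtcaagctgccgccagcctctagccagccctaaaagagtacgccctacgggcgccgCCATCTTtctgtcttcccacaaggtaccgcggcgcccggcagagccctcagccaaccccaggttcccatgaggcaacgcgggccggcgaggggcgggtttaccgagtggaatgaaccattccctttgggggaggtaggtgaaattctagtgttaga
Mrps25: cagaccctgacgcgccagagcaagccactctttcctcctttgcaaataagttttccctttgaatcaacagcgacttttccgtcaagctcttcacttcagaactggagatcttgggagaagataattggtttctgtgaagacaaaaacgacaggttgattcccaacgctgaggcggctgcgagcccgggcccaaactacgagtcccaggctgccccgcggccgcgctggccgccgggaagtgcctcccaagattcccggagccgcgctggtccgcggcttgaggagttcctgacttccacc
Mrps12 holds an ETS core 1 base after the start and a YY1 core 198 bases before it. Mrps18b holds the NRF1 core 220 bases before the start and 31 bases after it, with an ETS core 43 bases after it, and Mrps11 holds a YY1 core 106 bases before the start.

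Promoters were given for 67 of the 76 genes, 73 in all, among 32851 mouse promoters of the same length from RefSeq. Motifs were searched on both strands; TGCGCA and CACGTG read the same on each, and CCGGAAG and AAGATGG can share the letters AAG. The ETS core was in 25 member promoters (34.2%), against 8.86% of all promoters and 17.9% of those of genes above the median level. The NRF1 core was in 22 (30.1%, against 7.76% and 13.8%), the YY1 core in 13 (17.8%, against 6.34% and 7.19%) and the E-box CACGTG, which MYC can bind, in 7 (9.59%, against 7.15% and 10%). At least 2 of the motifs were in 17 member promoters (23.3%, against 4.15% and 8.44%), and 25 (34.2%) had none. TATAAA was in 0 of the 73 within 50 bases before the start, against 3.5% of all promoters. Median GC content was 58.7% in member promoters, 52.7% in all and 60.7% in those of genes above the median level. By gene, the ETS core was found in 17 of 36 called members with a promoter (47.2%) and in 8 of 31 others (25.8%), and the NRF1 core in 10 of 36 (27.8%) and in 11 of 31 (35.5%); these shares are descriptions of the letters in these windows and were not tested.

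Members were spread over 17 chromosomes, with at most 11 on a single one, chromosome 11. Many share a start region with a gene on the other strand: 22 of 67 (32.8%) had a promoter window overlapping that of an opposite-strand gene, against 10.9% of all genes and 18% of genes above the median level. The 22 partners include Mrpl46 and Mrps11, which are each other's; of the 20 partners that are no members 5 rose (25%, against 10.4% of all genes) and 1 fell, with a median difference of 0.05. Mrpl27 lies 48 bases from the start of Eme1, a subunit of a DNA repair nuclease, which rose by 2.18 (SE 0.16; limma adjusted p = 0.00024). Mrpl57 lies 76 bases from Ska3, a kinetochore protein that rose by 2.20 (SE 0.17; limma adjusted p = 0.00032). Mrps12 lies 147 bases from Sars2, the mitochondrial seryl-tRNA synthetase, which rose by 0.65 (SE 0.14; limma adjusted p = 0.02). Mrpl46 and Mrps11 face each other at 42 bases, with differences of 0.44 (limma adjusted p = 0.07) and 0.74. Partners also went otherwise: the partner of Mrpl40, Hira, gave 0.30 (SE 0.16; limma adjusted p = 0.31), and Zfp661, the partner of Mrps5, fell by 0.61 (SE 0.12; limma adjusted p = 0.014). Of the pairs, Mrpl32 did not pass (0.05) beside Psma2, a proteasome subunit that rose by 0.39 (SE 0.10; limma adjusted p = 0.0462).

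The EGFP- arrays give the allele difference outside the EGFP+ gate, with 1 array a side and therefore no test. The mutant EGFP- array exceeded the WT EGFP- array in 72 of 76 members, with a median log2 difference of 0.32 and a range of -0.25 to 0.91, against 50.3% of all genes higher and a median of 0.00. Summed marker intensities of other cells differed between the same arrays. In WT and mutant EGFP- they were 159 and 545 for 4 NK cell markers and 772 and 1486 for 14 myeloid markers. They were 282 and 559 for 2 CD8 T cell markers and 432 and 554 for 9 B cell markers. The sum of 29 cell cycle genes was 16225 and 42385. Single genes weighed on the small sets: in log2, Eomes of the NK cell markers read 6.25 and 8.73. Of the CD8 T cell markers Cd8a read 6.28 and 8.52, but Cd8b1 read 7.67 and 7.59. The part of other cells and of division in the difference was not tested. At least 1.5-fold higher were 9 members (11.8%), against 8.31% of all genes and 11.5% of genes above the median level, so at that cut the share of members was close to that of genes of like level. None of the members was lower by that fold. The 9 were Mrpl18, Mrpl27, Mrpl51, Mrpl54, Mrps6, Mrps11, Mrps16, Mrps25 and Mrps30, led by Mrps6 at 9.14 (WT) and 10.05 (mutant). In 75 members the mutant EGFP- array lay above all 3 WT EGFP+ arrays (98.7%, against 34.2% of all genes). Against the mutant EGFP+ arrays it lay within their range in 32 members, below it in 33 and above it in 11. Among all 18193 genes the same counts were 7250, 5847 and 5096. The WT EGFP- array lay above all 3 WT EGFP+ arrays in 44 members (57.9%, against 29.9% of all genes). It lay within their range in 30 members and below it in 2, against 8168 and 4577 of the 18193 genes. Below every mutant EGFP+ array it lay in 63 members (82.9%, against 35.1% of all genes).

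Between EGFP+ and EGFP- cells of 1 allele no member passed. For the WT allele 0 members were higher and 0 lower (limma), where 1.02% of all genes were called higher and 0.478% lower; the smallest adjusted p was 0.19, for Mrpl58. The median difference of EGFP+ minus EGFP- was -0.17, with 61 of 76 below 0, against -0.02 and 9664 of 18193 over all genes. At an unadjusted p under 0.05 there were 6, all lower in EGFP+ (7.89%, against 5.37% of all genes and 7.36% of genes above the median level), among them Mrpl58 (-0.60, SE 0.15), Mrpl47 (-0.60, SE 0.24), Mrps18b (-0.64, SE 0.19) and Mrps28 (-0.49, SE 0.17). Mrpl58, a peptidyl-tRNA hydrolase that frees stalled ribosomes, read 9.55, 9.64 and 9.67 in WT EGFP+ and 10.22 in WT EGFP-. Mrps18b read 9.24 in WT EGFP-, above its 3 WT EGFP+ arrays and level with the mutant ones. The highest by small-subunit symbol were Mrps6, at 9.31, 9.78 and 9.64 in WT EGFP+ and 9.14 in WT EGFP- (0.44, SE 0.21; limma adjusted p = 0.59), Mrps30 (0.27, SE 0.30) and Mrps11 (0.04, SE 0.17), and those of the large subunit were Mrpl14 (0.16, SE 0.14), Mrpl16 (0.12, SE 0.19) and Mrpl32 (0.11, SE 0.18), none of which passed. The value of Mrps11 turned to -0.02 without WT EGFP+ array 1.

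For the mutant allele 0 members were higher and 0 lower between EGFP+ and EGFP- (limma), with 0 also at an unadjusted p under 0.05 (11% of all genes), where 0.022% of all genes were called higher and 0.066% lower. The median difference was 0.05, with 51 of 76 above 0, against 0.02 and 9622 of 18193 over all genes. The smallest limma adjusted p was 0.52. The lowest by large-subunit symbol were Mrpl58, at 9.82, 9.92 and 10.02 in mutant EGFP+ and 10.27 in mutant EGFP- (-0.35, SE 0.15), and Mrpl23 (-0.27, SE 0.15). Those by small-subunit symbol were Mrps30 (-0.20, SE 0.30) and Mrps34 (-0.15, SE 0.17). The highest of the large subunit were Mrpl20, at 10.36, 10.17 and 10.18 against 9.88 (0.36, SE 0.17), Mrpl11 (0.29, SE 0.16) and Mrpl13 (0.27, SE 0.17), and those of the small subunit Mrps36 (0.27, SE 0.19), Mrps25 (0.26, SE 0.15) and Mrps11 (0.18, SE 0.17). None of these passed, and each rests on a single EGFP- array that was assumed to vary like the EGFP+ groups. The difference between the alleles' EGFP differences was itself tested and gave 0 higher and 0 lower (limma, 0.022% and 0.044% of all genes). The smallest limma adjusted p was 0.76. The median of this difference was 0.23, with 67 of 76 above 0, against 0.03 and 9881 of 18193 over all genes. At an unadjusted p under 0.05 there were 3, all higher: Mrps18b (0.71, SE 0.27), Mrps28 (0.58, SE 0.24) and Mrpl11 (0.55, SE 0.23). That is 3.95% of members, near the 3.13% of all genes. The EGFP comparisons and this interaction share arrays with each other and with the comparison of the EGFP+ groups.

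**Figure D4:**
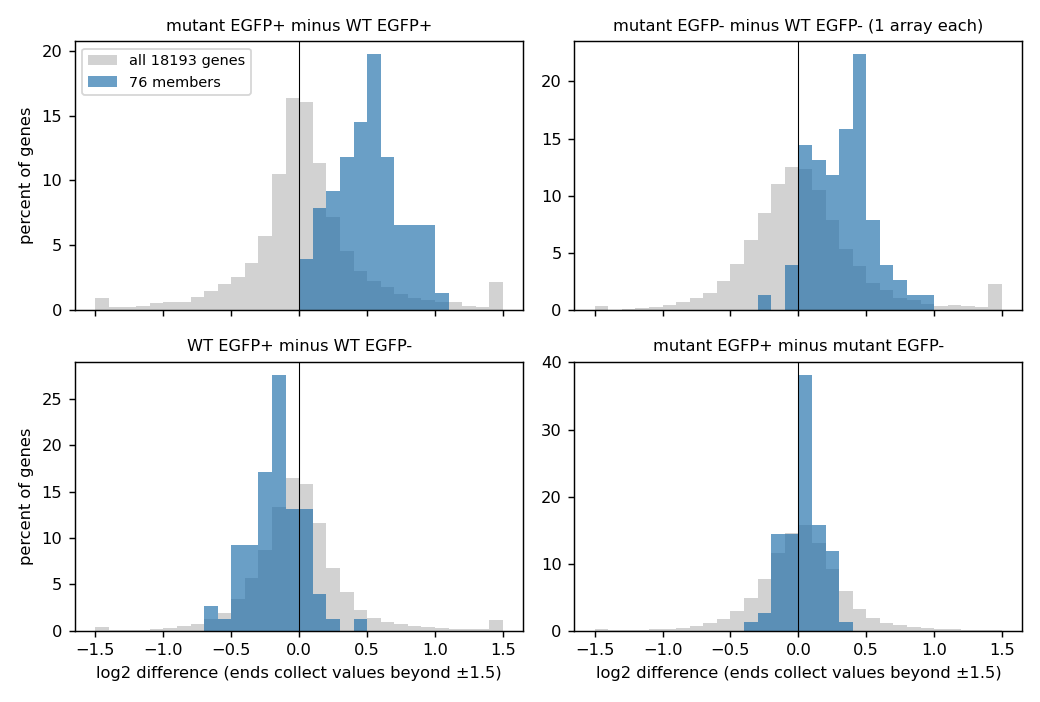
Share of genes (vertical axis, percent) by log2 difference (horizontal axis, values beyond ±1.5 collected in the end bins) for the 76 members in blue and all 18193 genes in grey, in 4 comparisons. Most members lie to the right of 0 between alleles, in EGFP+ and in EGFP- cells, and around or slightly left of 0 between EGFP+ and EGFP- cells of 1 allele.

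Genes that work with the mitochondrial ribosome were read from lists chosen by function, in the comparison of mutant with WT EGFP+ (10.4% of all genes called higher, 6.02% lower). Of 4 measured ribosomal proteins that carry other symbols 2 rose and 0 fell: Gadd45gip1, also called CRIF1 (0.53, SE 0.11; limma adjusted p = 0.022), and Chchd1 (0.47, SE 0.12; limma adjusted p = 0.044). Of 15 translation factors 4 rose and 0 fell, with a median of 0.28. They include Slirp, which stabilises mitochondrial messenger RNAs (0.94, SE 0.16, limma adjusted p = 0.0077). The elongation factor Gfm1 (0.70, SE 0.15, limma adjusted p = 0.018) and Gfm2 (0.50, SE 0.13, limma adjusted p = 0.042) rose too. Of 26 assembly factors 5 rose and 0 fell, with a median of 0.09, including the helicase Ddx28 (0.89, SE 0.11; limma adjusted p = 0.0017), the GTPase Gtpbp10 (0.74, SE 0.12; limma adjusted p = 0.0076) and the ribosomal RNA methyltransferase Tfb1m (0.68, SE 0.14; limma adjusted p = 0.019). Of 19 mitochondrial aminoacyl-tRNA synthetases 2 rose and 0 fell, with a median of 0.13; besides Sars2 this was Rars2 (0.49, SE 0.13; limma adjusted p = 0.0496). Of 19 genes of mitochondrial DNA expression and its regulators 0 rose and 2 fell, with a median of -0.11: the coactivator Ppargc1b fell by 0.63 (SE 0.15; limma adjusted p = 0.036) and the DNA polymerase Polg fell by 0.52 (SE 0.12; limma adjusted p = 0.032).

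The nuclear-encoded respiratory chain subunits gave 33 of 81 higher and 0 lower, with a median of 0.38. They include Ndufc1 (0.83, SE 0.13; limma adjusted p = 0.0054) and Ndufb9 (0.72, SE 0.13; limma adjusted p = 0.01) of complex I and Cox6b2, a testis form of a cytochrome oxidase subunit (1.16, SE 0.11; limma adjusted p = 0.00075). The proteins of the cytosolic ribosome differed less: 6 of 50 rose and 0 fell, with a median of -0.03, and the highest were variant forms, Rps4l (2.71, SE 0.31; limma adjusted p = 0.0015), Rpl39l (2.27, SE 0.39; limma adjusted p = 0.0086) and Rps27l (0.88, SE 0.12; limma adjusted p = 0.0035). Of these forms Rps4l and Rpl39l were low in WT EGFP+, at means of 5.70 and 5.07, with SDs of 0.68 and 0.91 in mutant EGFP+. The median level percentile of all 50 was 99.8, near the top of the arrays. No test compared the lists with each other.

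**Figure D5:**
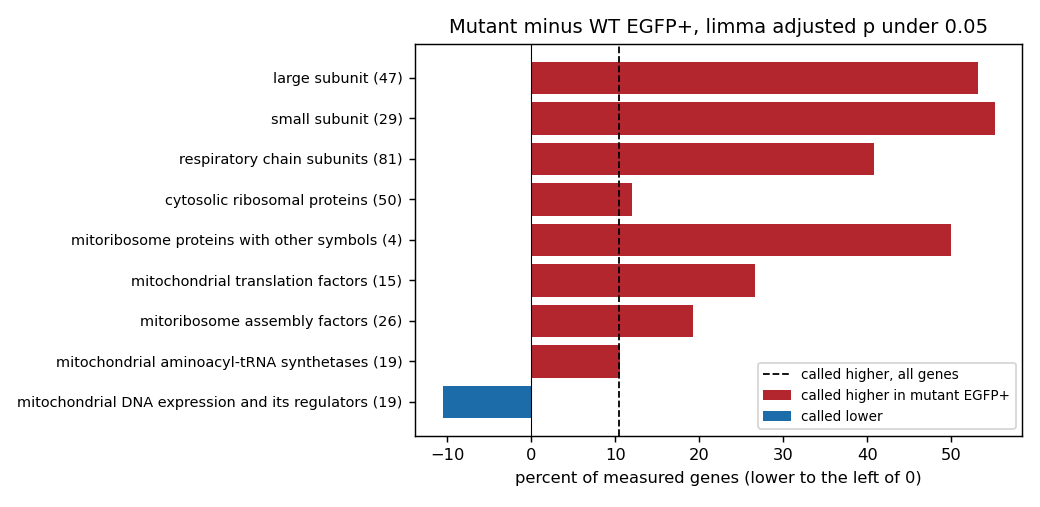
Percent of measured genes called higher (red, to the right) or lower (blue, to the left) in mutant EGFP+ against WT EGFP+ at a limma adjusted p under 0.05, with the number of measured genes of each list in brackets; the dashed line marks 10.4%, the share of all genes called higher. The large-subunit bar reaches 53.2%, the small-subunit bar 55.2%, and the cytosolic ribosomal bar stays near the dashed line.

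Other features of the arrays were read in the same groups, and only some of them separated the EGFP+ groups. Of 29 measured cell cycle genes 27 rose and 0 fell between mutant and WT EGFP+, with a median of 2.62. Their mean deviation by array was -0.89, -1.58 and -0.57 in WT EGFP+, 1.40, 1.25 and 1.5 in mutant EGFP+, -1.73 in WT EGFP- and 0.62 in mutant EGFP-, and their summed intensity was 16064 to 25952 in WT EGFP+ and 60331 to 68926 in mutant EGFP+. Of 20 handling stress genes 1 rose and 4 fell, with a median of -0.90 and a summed intensity of 37821 to 70370 in WT EGFP+ and 32402 to 47243 in mutant EGFP+. Of 9 CD4 T cell markers 0 rose and 3 fell, with a median of -0.28 and a summed intensity of 36657 to 38908 in WT EGFP+ and 31519 to 33454 in mutant EGFP+. The summed intensity of 9 B cell markers was 408 to 553 in WT EGFP+ and 374 to 460 in mutant EGFP+, that of 14 myeloid markers 808 to 2077 and 881 to 1542, that of 4 NK cell markers 139 to 191 and 224 to 262, with 1 of them above the median level, and that of 6 erythroid and platelet markers 348 to 378 and 327 to 386. The 2 CD8 T cell markers summed to 138 to 218 in WT EGFP+ and 156 to 628 in mutant EGFP+. Of these 2, Cd8a read 8.50, 8.84 and 5.95 in mutant EGFP+ and Cd8b1 read 6.82, 7.41 and 6.56. Of these other-cell markers Eomes alone rose (0.91, SE 0.21; limma adjusted p = 0.026) and 0 fell. The part of division, handling stress and other cells in the difference of mitochondrial ribosomal proteins was not tested. RNA was compared per array, so more RNA per cell and more cells of a type cannot be told apart.

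For 42 members the array holds further probe sets, 80 in all, which the choice of the brightest left unused. Of these 10 rose (12.5%) and 2 fell (2.5%), against 6.91% and 6.07% of the further probe sets of all genes. Among the 54 above the median level of all probe sets 41 (75.9%) gave a difference above 0, with a median of 0.24, against 44.9% of such sets of all genes, and the 10 that rose were 18.5% of them, against 11.5%. Among the 26 below it the median was -0.04. The 10 that rose came from Mrpl19, Mrpl27, Mrpl28, Mrpl39, Mrpl41, Mrpl48, Mrpl49, Mrpl52 (2 sets) and Mrps2, and for Mrpl28, Mrpl39, Mrpl49, Mrpl52 and Mrps2 the brightest probe set itself had not passed. The second probe set of Mrpl39 gave 0.49 (SE 0.11; limma adjusted p = 0.024) beside 0.21 for the brightest. Those that fell were a set of Mrps14 at the 32.5 percentile of level (-0.75, SE 0.16; limma adjusted p = 0.021), whose brightest set gave 0.34, and a set of Mrpl21 at the 64.6 percentile (-0.66, SE 0.17; limma adjusted p = 0.043), whose brightest set rose by 0.50. With the mean of all probe sets of the gene Mrps14 gave -0.15 (limma adjusted p = 0.43) and Mrpl21 gave -0.04 (limma adjusted p = 0.86), so the call of Mrpl21 rests on its brightest set. The probe sets of a gene can read different transcript ends or forms, which the files do not tell apart. Of the 76 brightest sets 8 carry a suffix that marks probes shared with other transcripts.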

How the data were processed

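Expression was measured in sorted mouse CD4+ T cells on 8 Affymetrix arrays, 1 per sample, after RNEasy extraction and biotin labelling, per the labels' protocols. The authors deposited 1 linear intensity per probe set and array; RMA is named in the submitters' processing notes, without a version. Low values carry no detection call, and the number of arrays limits the precision. Log2 was taken without a pseudocount.

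The file held 45101 probe sets, of which 64 controls were left out and 45037 tested. The platform annotation gave 34945 of them 1 symbol, 932 several and 9160 none; Mrpl30 and Mrpl53, read only by probe sets with several symbols, were therefore not counted. A mean per group was fitted to all 8 arrays with limma 3.58.1 in R 4.3.3 (4 residual and 3.72 prior degrees of freedom), p-values adjusted by Benjamini-Hochberg across the probe sets and a threshold of 0.05. The single EGFP- arrays were assumed to vary like the EGFP+ groups. With 3 arrays a side, the smallest p of an exact permutation test would be 0.1. Groups came from the sample titles and replicate numbers from accession order. The fit was also run on simulated arrays with independent errors, in which the changes put in were larger than most member differences. That run therefore does not show how well differences as small as those of most members are found.

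The members, lists, tests and alternatives were chosen with earlier results of these data known. Genes named were, per subunit, the 6 highest and 3 lowest in mutant against WT EGFP+, the 3 highest and 2 lowest in each EGFP comparison, a panel (Mrpl10, Mrpl12, Mrpl37, Mrps12, Mrps18a, Mrps18b, Mrps18c, Mrps30), and up to 3 per list past the threshold. Other members, among them those beside the threshold, were named after their values were seen. Positions and promoters are from RefSeq, build GRCm38.p6. Alternatives covered left-out arrays, the runs of title numbers, normalization, a pseudocount of 16, dim probe sets, the choice of probe set, the arrays in the fit and the variance model.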

Additional observations from a re-analysis of the deposited data

Results flagged for a closer look

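In 18 of 76 members (23.7%) all 3 WT EGFP+ arrays lay below the WT EGFP- array while all 3 mutant EGFP+ arrays lay above the mutant EGFP- array, against 6.67% of all genes and 6.29% of genes above the median level. The interaction test passed for 0 of them (limma), with adjusted p-values from 0.79 to 0.98, and 1 of them, Mrpl11, had an unadjusted p under 0.05. The difference of the EGFP differences, mutant less WT, was 0.55 for Mrpl11, 0.38 for Mrpl13, 0.45 for Mrpl17, 0.28 for Mrpl2, 0.40 for Mrpl3, 0.23 for Mrpl35, 0.57 for Mrpl40, 0.41 for Mrpl42, 0.38 for Mrpl45 and 0.34 for Mrpl57 in the large subunit, and 0.22 for Mrps12, 0.50 for Mrps17, 0.34 for Mrps18a, 0.13 for Mrps18c, 0.39 for Mrps25, 0.25 for Mrps26, 0.39 for Mrps27 and 0.36 for Mrps33 in the small subunit. Mrps12 and Mrps18c did so by margins smaller than the rounding of their printed log2 values. Each of these values rests on the same 2 single EGFP- arrays. Subunits are given by symbol here, which places Mrps18a with the small one.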

How the results depend on the processing

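Under the alternatives run, 0 members fell between mutant and WT EGFP+, and 0 passed in either direction in the EGFP comparisons and the interaction. The 14 members called higher under every alternative were Mrpl2, Mrpl18, Mrpl20, Mrpl27, Mrpl40, Mrpl42, Mrpl45, Mrpl48, Mrpl55, Mrpl57, Mrps7, Mrps18c, Mrps25 and Mrps28. All genes called under every alternative were not counted, so whether 14 is many for genes of this kind cannot be told. Leaving out single arrays gave 20 to 49 members higher, with 6.63% to 11.9% of all genes called higher in the same fits. The labels give no replicate numbers. With the runs of title numbers as a block 29 members were higher, all among the 41, with 8.47% of all genes. Mrps10 lost its call with this block (0.75, limma adjusted p = 0.0509). The mean of a gene's probe sets gave 40 members higher, 28 of them among the 41, with 11.6% of all genes. It gave a median of 0.36 in place of 0.53, and the cause was not tested. Between mutant and WT EGFP+, leaving out single arrays gave -0.05 to 0.17 for Mrpl38, -0.04 to 0.11 for Mrpl32, -0.03 to 0.16 for Mrpl24 and -0.07 to 0.23 for Mrps30. With the mean of their probe sets Mrpl38 gave -0.05, Mrpl21 -0.04 and Mrps14 -0.15. Mrpl38 gave -0.24 without shared-probe sets, and Mrpl32 gave -0.02 without WT EGFP+ array 2 and mutant EGFP+ array 3 together. Mrps11 gave -0.02 to 0.13 between WT EGFP+ and EGFP- without single arrays, and with the mean of its probe sets -0.22 there and -0.08 for the mutant allele. Mrps30 gave 0.10 between mutant EGFP+ and EGFP- with the block. With 3 arrays a group and 1 EGFP- array per allele, small differences could not be resolved.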
